A study of Mus musculus with 13 samples.

Results

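The 8 troponin genes of the mouse, Tnni1, Tnni2, Tnni3, Tnnt1, Tnnt2, Tnnt3, Tnnc1 and Tnnc2, were followed through heart development in single-cell RNA-seq count matrices. The genes were taken by symbol from the 27998 genes that each matrix lists, and all 8 were found. The series sampled cells of wild-type C57Bl/6J mice at 6 stages, to study how the developing heart and its conduction system are built. At embryonic day (E) 8.5 and E10.5 the tissue was the embryo with head and limbs removed, and from E12.5 on, through E14.5 and E16.5 to day 3 after birth (P3), it was the dissected heart. No stage carried a treatment or an allele other than wild type, and how many animals went into a library was not given in the sources used here. The 10 matrices, from 12 of the 13 sample records, were 1 library of E8.5, 2 libraries each of E10.5, E12.5, E14.5 and E16.5, and 1 matrix of P3 that joins 2 wells.

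The troponin complex sits on the thin filament of striated muscle and couples calcium to contraction. Troponin C binds calcium, troponin I holds back the contact of actin with myosin until calcium arrives, and troponin T ties the complex to tropomyosin. Each subunit has several genes: Tnni1, Tnni2 and Tnni3 encode the slow skeletal, fast skeletal and cardiac troponin I, Tnnt1, Tnnt2 and Tnnt3 the slow skeletal, cardiac and fast skeletal troponin T, Tnnc1 the slow skeletal and cardiac troponin C, and Tnnc2 the fast skeletal one. The embryonic heart is known to use slow skeletal troponin I beside the cardiac form, and the adult heart the cardiac form.

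The troponin genes lie in pairs in the genome (GRCm38, mm10), a troponin I gene near a troponin T gene each time. On chromosome 1, Tnni1 spans 135779434 to 135810989 and Tnnt2 spans 135836354 to 135852260, both on the plus strand with 25364 bases between them. On chromosome 7, Tnnt1 (4504570 to 4516382) and Tnni3 (4518305 to 4524229) are both on the minus strand, 1922 bases apart with no annotated gene between them. Further along chromosome 7, Tnni2 (142441808 to 142444410) and Tnnt3 (142498836 to 142516009) are both on the plus strand, 54425 bases apart. The troponin C genes stand alone, Tnnc1 on chromosome 14 (31208312 to 31211729, plus strand) and Tnnc2 on chromosome 2 (164777161 to 164779967, minus strand). Tnni3 shares 1297 bases with Dnaaf3 on the same strand, and how reads from that stretch were counted was not examined. Tnnc1 lies within Nisch, Tnnc2 shares 1662 bases with Ube2c and Tnnt3 shares 7936 bases with Prr33, each on the other strand.

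The promoters of 4 genes are printed here so that the neighbouring pairs can be compared by eye: Tnnt1, the gene with the largest stage differences in ventricular sums, its neighbour Tnni3, then Tnni1, which is set against Tnni3 in the results, and its neighbour Tnnt2, which sets the gates. They are RefSeq sequences of GRCm38.p6, from 250 bases before to 50 bases after a gene's start, 5′ to 3′ on the gene's strand, at chr7:4515926-4516225 (minus strand), chr7:4522479-4522778 (minus), chr1:135799171-135799470 (plus) and chr1:135836084-135836383 (plus), and 6 of the 8 genes had an entry, all but Tnni2 and Tnnt3. The starts are those of RefSeq. For Tnnt1, Tnni3 and Tnni1 they lie inside the gene spans given above, which take in transcripts that begin further upstream, and of a pair of windows listed for Tnni1 and for Tnnt2 the upstream one is printed. Capitals mark matches to a GATA motif (AGATAA and likewise AGATAG, beside TGATAA and likewise TGATAG) or the M-CAT motif CATTCC, searched on both strands.
Tnnt1: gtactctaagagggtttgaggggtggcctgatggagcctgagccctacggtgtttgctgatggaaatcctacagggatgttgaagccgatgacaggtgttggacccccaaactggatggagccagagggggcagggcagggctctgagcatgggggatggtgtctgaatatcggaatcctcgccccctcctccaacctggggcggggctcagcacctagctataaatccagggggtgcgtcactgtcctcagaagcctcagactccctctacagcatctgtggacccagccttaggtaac
Tnni3: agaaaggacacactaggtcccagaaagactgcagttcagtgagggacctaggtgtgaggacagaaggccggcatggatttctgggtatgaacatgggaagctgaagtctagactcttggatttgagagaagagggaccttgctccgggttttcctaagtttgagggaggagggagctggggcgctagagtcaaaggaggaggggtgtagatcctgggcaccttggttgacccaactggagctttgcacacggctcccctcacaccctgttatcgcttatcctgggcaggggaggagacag
Tnni1: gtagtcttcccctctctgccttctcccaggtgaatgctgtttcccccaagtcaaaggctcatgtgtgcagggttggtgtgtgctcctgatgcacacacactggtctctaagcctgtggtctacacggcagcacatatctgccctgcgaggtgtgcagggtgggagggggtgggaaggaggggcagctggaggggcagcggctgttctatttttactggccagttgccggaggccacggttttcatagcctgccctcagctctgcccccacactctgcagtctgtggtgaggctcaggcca
Tnnt2: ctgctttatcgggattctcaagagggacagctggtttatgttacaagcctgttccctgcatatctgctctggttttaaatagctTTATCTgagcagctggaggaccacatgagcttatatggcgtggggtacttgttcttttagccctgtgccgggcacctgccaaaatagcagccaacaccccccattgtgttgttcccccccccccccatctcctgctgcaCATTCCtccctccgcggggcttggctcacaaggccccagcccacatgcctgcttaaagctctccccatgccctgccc
Of the members' windows, this Tnnt2 window held a GATA match, on the other strand, and an M-CAT match, and the Tnnc1 window held an M-CAT match on the other strand. Across all 32851 promoter windows, 29.8% held a GATA match and 14.7% an M-CAT match, so such letters are common. The MEF2 and CArG motifs, which 3.19% and 1.63% of the windows held, were not matched in the members' windows. No match says only that these letters are not in the window.

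Of 80741 barcodes with at least 2000 unique molecular identifiers (UMIs, counted transcripts), 23962 passed the ventricular gate and 2479 the atrial gate. The ventricular gate took barcodes with Tnnt2 at 1500 counts or more per 1000000 UMIs of the barcode (CPM) and Myl2, the ventricular light chain, at 1000 CPM or more. The atrial gate took barcodes with the same Tnnt2 level, Myl2 under 500 CPM and Myl7, the atrial light chain, at 1000 CPM or more. Ventricular-gated barcodes numbered 65 at E8.5, 42 and 48 in the E10.5 libraries, 2286 to 3557 in each library from E12.5 to E16.5 and 5960 at P3. Atrial-gated barcodes numbered 63 at E8.5, 56 and 39 at E10.5, 195 to 303 in each library from E12.5 to E16.5 and 769 at P3. The gates thus fix levels of Tnnt2, Myl2 and Myl7, and the E8.5 and E10.5 values rest on few barcodes.

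The files held 67141166 to 259041468 UMIs, and kept barcodes had a median of 10268 to 24516 UMIs. The gated sums carried all 8 cardiomyocyte markers in every library, and Irx4, a ventricular transcription factor, stood at 36.7 to 56.0 CPM in ventricular and at 0 to 3.48 CPM in atrial sums. A list of 7 atrial markers separated the gates from E12.5 on, at 14130 to 56410 CPM in atrial and 2444 to 10210 CPM in ventricular sums. At E10.5 it differed little, with 8267 and 8204 CPM in atrial against 7429 and 7796 CPM in ventricular sums, and at E8.5 it was lower in the atrial sum (6966 against 8054 CPM), so at E8.5 the atrial sum is named by its gate and not by these markers. The myogenic factors Myog and Myod1 stayed at or below 1.56 and 0.0286 CPM in both gates. The erythroid list, which holds the globins, summed to 115 to 8469 CPM in atrial and 117 to 6986 CPM in ventricular sums, and its part in the results was not tested. Libraries shared 0.548% to 2.42% of the smaller library's barcodes, and the replicates of a stage differed by more than counting noise.

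**Figure D1:**
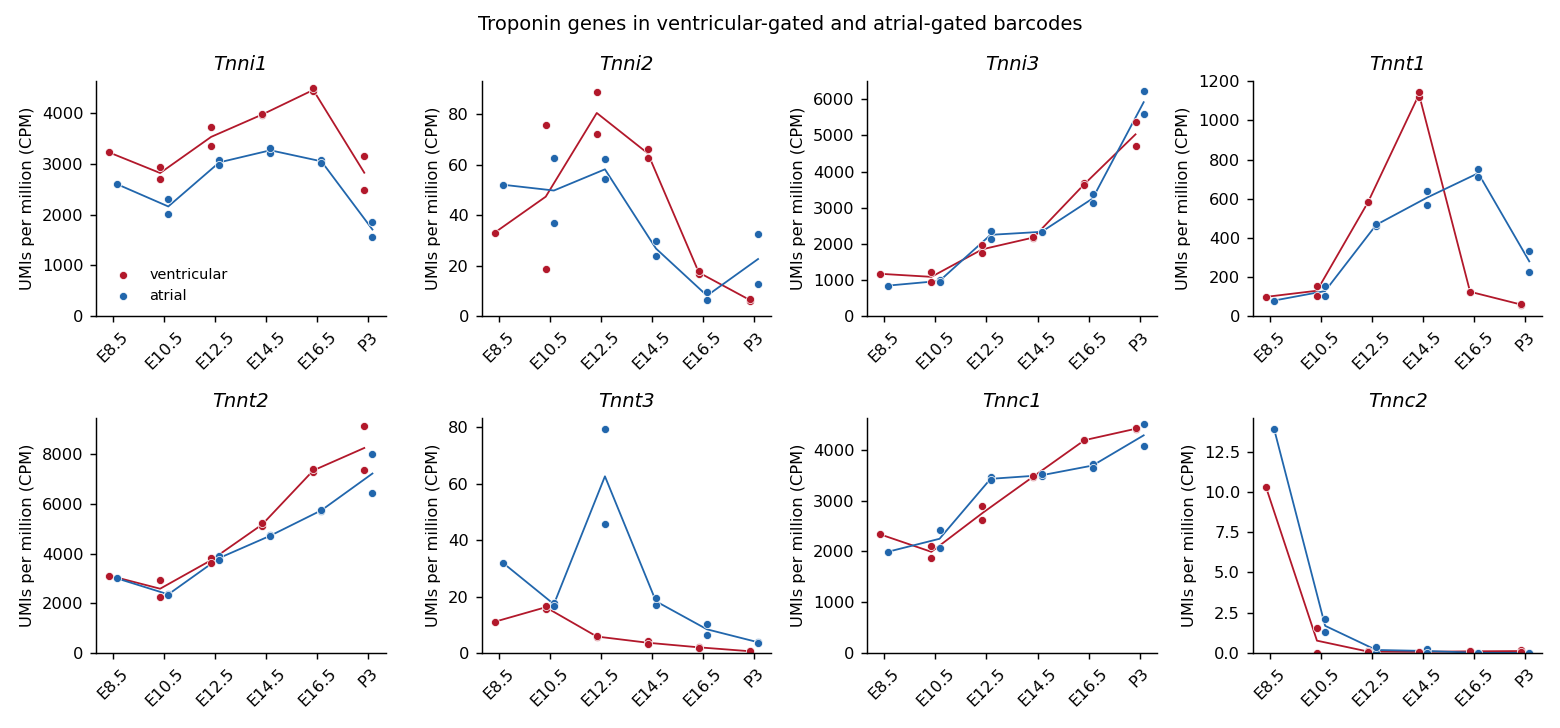
Level of each of the 8 troponin genes in CPM (vertical axes, linear and scaled for each gene) at each stage (horizontal axis), with 1 point for each library or P3 well, lines through the means of a stage and separate colours for ventricular and atrial sums. Tnnt1 of the ventricular sums peaks at 1119 and 1147 CPM at E14.5 and lies at 124 and 126 CPM at E16.5, whereas Tnni3 is highest at P3 in both chambers.

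Stages were compared between neighbouring pairs from E10.5 to E16.5, with counts summed per library and edgeR's quasi-likelihood test, Benjamini-Hochberg adjusted over all genes tested. Of the 8 genes 6 are given with a test, because Tnnc2 had too few counts in every fit and Tnnt2 sets the gates. In ventricular sums 4 of the 6 rose and 1 fell from E10.5 to E12.5, where 8.44% of 14069 genes were called higher and 5.47% lower. From E12.5 to E14.5, 1 rose and 1 fell, with 19.4% of all genes called higher and 17.0% lower. From E14.5 to E16.5, 3 rose and 3 fell, with 19.3% of all genes called higher and 20.4% lower, so that each tested member changed in that interval. The median log2 fold change of the 6 was 0.79, 0.16 and −0.19 in the 3 intervals (0.33 in the last if Tnnt2 is counted), beside 0.12, 0.00 and −0.02 over all genes tested. The first of those all-gene medians is a general shift, against which the E10.5 to E12.5 values are to be read. Between E10.5 and E12.5 the tissue also changed, from embryos without head and limbs to dissected hearts. Stage and tissue cannot be told apart in that interval, in either chamber.

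In atrial sums, 4 of the 6 passed the test from E10.5 to E12.5, each of them higher, with 10.51% of 11325 genes called higher and 10.47% lower. From E12.5 to E14.5, 1 rose and 2 fell, beside 3.81% and 3.10% of all genes. From E14.5 to E16.5, 2 rose and 1 fell, beside 7.79% and 4.16% of all genes. The medians of the 6 were 0.86, 0.07 and 0.14, beside 0.07, 0.01 and 0.01 over all genes.

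Among the troponin I genes, cardiac Tnni3 rose between E10.5 and E16.5 and was highest at P3, while slow skeletal Tnni1 rose from E10.5 to E12.5 and stood lower at P3 than at E16.5 in both chambers. In ventricular sums Tnni3 was at 1172 CPM at E8.5, at 947 and 1228 CPM at E10.5, at 1956 and 1744 CPM at E12.5, at 2162 and 2188 CPM at E14.5, at 3676 and 3632 CPM at E16.5, and at 5357 and 4699 CPM in the P3 wells. The E8.5 library lay within the E10.5 pair, and from E10.5 on the libraries of neighbouring stages did not overlap. Tnni3 rose by a log2 fold change of 0.95 ± 0.13 (SE, n = 2 libraries a stage) from E10.5 to E12.5 (edgeR adjusted p = 3.3e-06) and by 0.92 ± 0.12 from E14.5 to E16.5 (edgeR adjusted p = 4.9e-07). Between E12.5 and E14.5 the log2 difference was 0.19, which did not pass (edgeR adjusted p = 0.24).

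Tnni1 in ventricular sums was at 3223 CPM at E8.5, 2707 and 2928 CPM at E10.5, 3716 and 3341 CPM at E12.5, 3964 and 3972 CPM at E14.5, 4422 and 4481 CPM at E16.5, and 3158 and 2488 CPM in the P3 wells. Its level was thus highest at E16.5, the E8.5 library stood above both E10.5 libraries, and the P3 wells lay on both sides of the E10.5 libraries. It rose by 0.51 ± 0.12 on the log2 scale from E10.5 to E12.5 (edgeR adjusted p = 0.0034, and 0.77 with Actc1 in place of Tnnt2 in the gate) and by 0.33 ± 0.12 from E14.5 to E16.5 (edgeR adjusted p = 0.023). The later call was lost without any 1 of the E14.5 or E16.5 libraries (0.33 to 0.36, edgeR adjusted p from 0.1 to 0.18). The log2 values carry a scaling of library size (TMM) that the CPM do not. Its factors were 1.012 in both E14.5 sums and 0.891 and 0.911 in the E16.5 sums. In mean CPM Tnni1 went from 3968 to 4451 between E14.5 and E16.5. It went from 3528 to 3968 between E12.5 and E14.5, where the log2 value of 0.12 did not pass (edgeR adjusted p = 0.43). P3 entered no test, because its wells form 1 matrix, and the part of its higher mitochondrial content in these levels was not tested.

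Atrial sums gave a like course for Tnni3, which was at 847 CPM at E8.5, 1003 and 947 CPM at E10.5, 2358 and 2141 CPM at E12.5, 2334 and 2331 CPM at E14.5, 3377 and 3132 CPM at E16.5, and 6233 and 5601 CPM in the P3 wells. The E12.5 and E14.5 libraries overlapped, and the other neighbouring stages from E8.5 on were apart. Tnni3 rose by 1.16 ± 0.09 on the log2 scale from E10.5 to E12.5 (edgeR adjusted p = 4.3e-14) and by 0.64 ± 0.09 from E14.5 to E16.5 (edgeR adjusted p = 2.9e-07). Atrial Tnni1 was at 2596 CPM at E8.5, 2015 and 2303 CPM at E10.5, 3073 and 2981 CPM at E12.5, 3220 and 3309 CPM at E14.5, 3079 and 3016 CPM at E16.5, and 1856 and 1555 CPM in the P3 wells, so both wells lay below every earlier atrial library. Of its stage comparisons only the first passed, with a rise of 0.44 ± 0.08 (edgeR adjusted p = 7.8e-05).

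The balance of the cardiac and the slow skeletal troponin I was read as the share of Tnni3 among the UMIs of both genes. It is a share of 3′ tags, not divided by gene length. In ventricular sums the share was 26.7% at E8.5 (exact binomial 95% interval 25.6% to 27.8%), 25.9% and 29.5% (E10.5), 34.5% and 34.3% (E12.5), 35.3% and 35.5% (E14.5), 45.4% and 44.8% (E16.5), with 62.9% and 65.4% for the P3 wells. In atrial sums it was 24.6% at E8.5 (23.4% to 25.8%), 33.2% and 29.1% (E10.5), 43.4% and 41.8% (E12.5), 42.0% and 41.3% (E14.5), 52.3% and 50.9% (E16.5), and 77.4% over the P3 matrix. The E14.5 shares lay close to those of E12.5 in both chambers, and the main steps in both chambers fell between E10.5 and E12.5, between E14.5 and E16.5, and between E16.5 and P3.

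From E12.5 on, most single barcodes held UMIs of both genes. After thinning to 2000 UMIs, 96.1% and 96.7% of ventricular barcodes at E16.5 and 98.8% (P3) had a UMI of each, and the range over both chambers from E12.5 on was 91.8% to 98.8%. At E10.5 the proportion was 64.3% to 79.5%, and at E8.5 it was 84.6% in ventricular and 47.6% in atrial barcodes. Endothelial-like barcodes, which should lack both genes, had after thinning a Tnni1 UMI in 22.9% and 21.5% at E16.5 and 12.6% at P3, and a Tnni3 UMI in 19.6% and 19.8% at E16.5 and 26.8% at P3. Their unthinned median depths were 11660 and 9212 UMIs (E16.5) and 17200 UMIs (P3), against 19220, 13660 and 15450 UMIs in ventricular barcodes. For the share per barcode, those with at least 10 UMIs of the pair were used. In ventricular barcodes the median share per barcode was 34.0% and 34.1% (E12.5), 44.9% and 44.4% (E16.5) and then 63.0% and 65.3% over the wells of P3, close to the shares of the sums. Barcodes with more Tnni3 than Tnni1 made up 5.25% and 5.92% of ventricular barcodes at E12.5, 22.0% and 22.3% (E16.5), and 95.5% (P3). In atrial barcodes the same proportion was 20.2% and 20.7% (E12.5), 56.3% and 52.4% (E16.5), and 99.9% (P3). At E16.5 the share had an SD of 7.68 percentage points over the ventricular barcodes of replicate 1, where counting alone gives 5.10 percentage points.

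**Figure D2:**
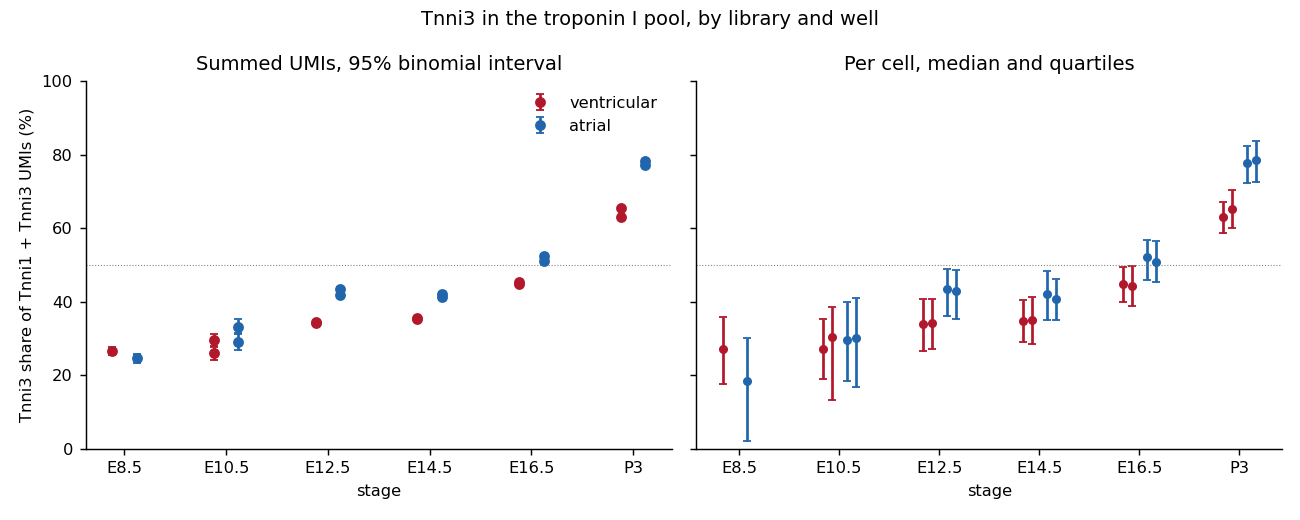
Share of Tnni3 among the UMIs of Tnni1 and Tnni3, in percent, by stage for ventricular and atrial sums (left, 1 point for each library or P3 well with its exact binomial 95% interval) and over single barcodes (right, median with quartiles). The dotted line marks equal UMIs of both genes. The ventricular share is 25.9% and 29.5% at E10.5 and 62.9% and 65.4% in the P3 wells, and the atrial share is above it from E12.5 on.

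Cardiac troponin T, Tnnt2, gave the most troponin T tags at all stages, and its level within the gates was lower at E10.5 than at E8.5 and then higher at each stage up to E16.5. It sets both gates, so levels under 1500 CPM in a barcode could not occur, and its values are a description with no test. Ventricular Tnnt2 was at 3117 CPM at E8.5, 2251 and 2920 CPM at E10.5, 3839 and 3633 CPM at E12.5, 5115 and 5232 CPM at E14.5, 7272 and 7428 CPM at E16.5, and 9131 and 7382 CPM in the P3 wells. Of the P3 wells, 1 lay above the E16.5 libraries and the other between them. These CPM include mitochondrial UMIs, at a median of 10.46% and 10.96% in ventricular barcodes at E16.5 and 23.1% at P3. The part of this in the comparison of P3 with E16.5 was not tested. The log2 differences over the 3 intervals from E10.5 to E16.5 were 0.71, 0.43 and 0.67, and the second was −0.12 after removal of barcodes with markers of another class (mixed-marker barcodes). Atrial Tnnt2 was at 2999 CPM at E8.5, 2392 and 2322 CPM at E10.5, 3885 and 3762 CPM at E12.5, 4733 and 4712 CPM at E14.5, 5715 and 5775 CPM at E16.5, and 8014 and 6440 CPM in the P3 wells. Its log2 differences from E10.5 on were 0.65, 0.34 and 0.44, and the second was 0.096 without barcodes under 1% mitochondrial UMIs and 0.54 without mixed-marker barcodes. With Actc1 in place of Tnnt2 in the gate, the first difference was 1.16 in ventricular and 1.04 in atrial sums.

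Slow skeletal troponin T, Tnnt1, changed more than any other tested member in ventricular sums: it rose between E10.5 and E14.5 and fell between E14.5 and E16.5. It was at 98.7 CPM at E8.5 (exact Poisson 95% interval 82.7 to 117), 105 and 155 CPM at E10.5, 583 and 581 CPM at E12.5, 1119 and 1147 CPM at E14.5, 124 and 126 CPM at E16.5, and 57.9 and 60.7 CPM in the P3 wells. The E16.5 libraries lay within the range of the E10.5 pair, and the E12.5 and E14.5 libraries stood above both. Tnnt1 rose 5.07-fold from E10.5 to E12.5 (log2 fold change 2.34 ± 0.15, edgeR adjusted p = 5.5e-13) and again from E12.5 to E14.5 (0.92 ± 0.11, edgeR adjusted p = 3.8e-08). From E14.5 to E16.5 the fall was 8.08-fold (−3.01 ± 0.11, edgeR adjusted p = 1.9e-19), and it lay between −3.17 and −2.99 in every alternative run.

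Atrial Tnnt1 took another course after E14.5. It was at 80.0 CPM at E8.5, 102 and 155 CPM at E10.5, 460 and 473 CPM at E12.5, 642 and 571 CPM at E14.5, 709 and 752 CPM at E16.5, and 226 and 334 CPM in the P3 wells. From E12.5 to E16.5 the libraries of each later stage lay above those of the stage before, and the P3 wells lay below E12.5. The rise from E10.5 to E12.5 was 1.86 ± 0.14 on the log2 scale (edgeR adjusted p = 7e-15), and those from E12.5 to E14.5 and from E14.5 to E16.5 were 0.41 ± 0.11 (edgeR adjusted p = 0.011) and 0.42 ± 0.11 (edgeR adjusted p = 0.0045). The second call was lost without E12.5 replicate 1 (0.40, edgeR adjusted p = 0.1), E12.5 replicate 2 (0.41, edgeR adjusted p = 0.068) or E14.5 replicate 1 (0.32, edgeR adjusted p = 0.27), without barcodes under 1% mitochondrial UMIs (0.22, edgeR adjusted p = 0.28) and without barcodes that carried markers of another class (0.55, edgeR adjusted p = 0.86). The third was lost without E14.5 replicate 2 (0.33, edgeR adjusted p = 0.15) or E16.5 replicate 2 (0.40, edgeR adjusted p = 0.065), with the study's mitochondrial limits (0.25, edgeR adjusted p = 0.11) and without the barcodes with markers of another class, where the difference was 0.025 (edgeR adjusted p = 0.99).

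Counted among all troponin T tags, Tnnt1 took 13.2% and 13.8% in ventricular sums at E12.5, 17.9% and 18.0% (E14.5), 1.68% and 1.66% (E16.5) and 0.672% (P3). In atrial sums it took 10.47% and 10.97% (E12.5), 11.91% and 10.76% (E14.5), 11.02% and 11.51% (E16.5) and 3.36% (P3). The ventricular share thus dropped at E16.5 while the atrial share at E16.5 lay within the range of E14.5. Most of the tags it is set against are those of Tnnt2, which sets the gates.

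The share of barcodes with a Tnnt1 UMI moved with these levels. After thinning each barcode to 2000 UMIs, 39.6% and 39.3% of ventricular barcodes had a Tnnt1 UMI at E12.5, 47.7% and 45.6% (E14.5), 15.1% and 15.5% (E16.5), and 9.93% (P3). Without thinning the proportions were 78.6% and 77.3%, 80.0% and 74.4%, 59.4% and 50.7%, and 48.6%. Endothelial-like barcodes, which should lack the gene, had a thinned share for Tnnt1 of 4.84% and 6.14% (E12.5), 6.82% and 7.34% (E14.5), 4.75% and 4.01% (E16.5) and 3.35% (P3), at unthinned median depths of 9212 to 17200 UMIs against 12290 to 20740 UMIs in ventricular barcodes. The ventricular shares were above these at each stage, by less at E16.5 and P3 than before. All barcodes in the thinned shares had 2000 UMIs or more, so none was left out.

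The fast skeletal isoforms Tnni2 and Tnnt3 were low, under 100 CPM in ventricular sums, and fell late in gestation. Ventricular Tnni2 was at 33.1 CPM at E8.5, 18.8 and 76.0 CPM at E10.5, 89.1 and 72.1 CPM at E12.5, 66.4 and 62.8 CPM at E14.5, 16.8 and 17.8 CPM at E16.5, and 6.02 and 6.79 CPM in the P3 wells. The E10.5 libraries were 4.04-fold apart, with 12 UMIs in the lower one, and that stage's value is not firm. From E14.5 to E16.5 Tnni2 fell by 1.73 ± 0.23 on the log2 scale (edgeR adjusted p = 0.0037). Removing barcodes with markers of another class, which left 783 and 758 ventricular barcodes (E14.5) beside 1810 and 2030 (E16.5), gave −0.37 and ended that call (edgeR adjusted p = 0.57). Without E10.5 replicate 2 the log2 difference from E10.5 to E12.5 moved from 0.94 to 2.32 and passed (edgeR adjusted p = 0.0036), as it did with Actc1 in place of Tnnt2 in the gate (1.31, edgeR adjusted p = 0.037), and without E10.5 replicate 1 it was 0.22 (edgeR adjusted p = 0.74). The difference between E12.5 and E14.5, −0.36 with an edgeR adjusted p of 0.26, passed without either E10.5 library (edgeR adjusted p = 0.011 each time).

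Ventricular Tnnt3 was lower still, at 11 CPM at E8.5, 15.7 and 16.7 CPM at E10.5, 5.76 and 5.86 CPM at E12.5, 4.07 and 3.12 CPM at E14.5, 2.06 and 1.88 CPM at E16.5, and 0.609 and 0.559 CPM in the P3 wells. The libraries of neighbouring stages from E10.5 on did not overlap, each later stage lying lower. The E10.5 level is not firm, with 10 UMIs in the library that had fewest. Low-count barcodes, taken below as a measure of free RNA, carried Tnnt3 at 1.77 and 1.46 CPM at E10.5, under both ventricular libraries. At E12.5 they carried it at 7.72 and 11.5 CPM, above both. At E14.5 (5.43 and 2.68 CPM) and E16.5 (1.52 and 2.87 CPM) they lay on both sides. The part of free RNA in this course was not tested. Tnnt3 fell by 1.30 ± 0.37, by 0.71 ± 0.13 and by 0.71 ± 0.15 on the log2 scale over the 3 intervals (edgeR adjusted p = 0.016, 6.7e-05 and 3e-04). The first call was lost without E10.5 replicate 1 (−1.39, edgeR adjusted p = 0.09) or replicate 2 (−1.21, edgeR adjusted p = 0.16). It was also lost with Actc1 in place of Tnnt2 in the gate (−0.61, edgeR adjusted p = 0.17), with the study's mitochondrial limits (−1.33, edgeR adjusted p = 0.05) and without mixed-marker barcodes where the smooth muscle list was not used (−1.17, edgeR adjusted p = 0.08). The second was −1.47 without all mixed-marker barcodes and still passed (edgeR adjusted p = 0.029). The third was lost without E14.5 replicate 1 (−0.48, edgeR adjusted p = 0.075) and without mixed-marker barcodes (−0.37, edgeR adjusted p = 0.45).

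Atrial Tnnt3 peaked at E12.5 instead. It was at 32.0 CPM at E8.5, 17.8 and 16.8 CPM at E10.5, 45.8 and 79.5 CPM at E12.5, 17.1 and 19.5 CPM at E14.5, 10.2 and 6.49 CPM at E16.5, and 3.95 and 3.61 CPM in the P3 wells. The E12.5 libraries stood above the rest and were 1.74-fold apart. The rise to E12.5, 1.81 ± 0.60 on the log2 scale, did not pass (edgeR adjusted p = 0.097). It passed without E12.5 replicate 1 (2.15, edgeR adjusted p = 2.2e-07) or replicate 2 (1.38, edgeR adjusted p = 0.0013), and also by DESeq2 (1.77, adjusted p = 0.00043), with no filter on low counts (1.85, edgeR adjusted p = 2.9e-10) and with the study's mitochondrial limits (1.77, edgeR adjusted p = 0.00012), among others. The fall to E14.5 passed (−1.78 ± 0.35, edgeR adjusted p = 0.041), and leaving out any 1 library of E10.5, E14.5 or E16.5 ended that call (−1.84 to −1.66, edgeR adjusted p from 0.05 to 0.18). The difference from E14.5 to E16.5, −0.93 with an edgeR adjusted p of 0.35, passed without E12.5 replicate 1 (−0.96, edgeR adjusted p = 0.0033) or replicate 2 (−0.96, edgeR adjusted p = 0.0049), with no filter on low counts (−0.93, edgeR adjusted p = 0.001) and with the study's mitochondrial limits (−1.13, edgeR adjusted p = 0.00072).

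Atrial Tnni2 was at 52.1 CPM at E8.5, 36.8 and 62.9 CPM at E10.5, 54.3 and 62.2 CPM at E12.5, 24.0 and 29.7 CPM at E14.5, 9.78 and 6.49 CPM at E16.5, and 32.7 and 12.6 CPM in the P3 wells. It fell from E12.5 to E16.5, by 1.12 ± 0.15 and then by 1.51 ± 0.22 on the log2 scale (edgeR adjusted p = 6.7e-07 and 1.5e-06), and both P3 wells lay above the E16.5 libraries. Both calls were lost with the study's mitochondrial limits (−1.88 and −1.04, edgeR adjusted p = 0.12 and 0.44) and without mixed-marker barcodes (−1.21 and −0.45, edgeR adjusted p = 0.6 and 0.81). Low-count barcodes carried Tnni2 at 79.41 and 71.15 CPM at E12.5 and at 48.1 and 50.6 CPM at E14.5, above both atrial libraries each time. At E16.5 both atrial libraries again lay below the low-count barcodes, which had 14.1 CPM in replicate 2. At E10.5 the low-count level was 2.8 and 2.04 CPM, under both atrial libraries. The part of free RNA in the atrial fall was not tested. The first 3 stages of atrial Tnni2 overlapped. Without E10.5 replicate 1 the E10.5 to E12.5 difference turned from 0.26 to −0.13, neither of which passed (edgeR adjusted p = 0.43 and 0.84).

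Tnnc1, the troponin C of heart and slow muscle, rose in ventricular sums between E10.5 and E12.5 and again between E14.5 and E16.5. In those sums it was at 2337 CPM at E8.5, 1881 and 2106 CPM at E10.5, 2901 and 2614 CPM at E12.5, 3468 and 3491 CPM at E14.5, 4193 and 4198 CPM at E16.5, and 4411 and 4429 CPM in the P3 wells. The libraries of neighbouring stages from E10.5 on did not overlap. It rose by 0.65 ± 0.12 from E10.5 to E12.5 and by 0.44 ± 0.12 from E14.5 to E16.5 on the log2 scale (edgeR adjusted p = 0.00026 and 0.0034). The later call was lost without E14.5 replicate 1 (0.43, edgeR adjusted p = 0.062) or replicate 2 (0.44, edgeR adjusted p = 0.052). The difference between E12.5 and E14.5 was 0.29 ± 0.12 (edgeR adjusted p = 0.052) and passed without either E10.5 library (edgeR adjusted p = 0.0099 and 0.0089) and without E12.5 replicate 1 (0.40, edgeR adjusted p = 0.012). It passed by DESeq2 too (0.30, adjusted p = 0.0093), and was −0.16 without mixed-marker barcodes (edgeR adjusted p = 0.11).

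Atrial Tnnc1 was at 1997 CPM at E8.5, 2077 and 2424 CPM at E10.5, 3461 and 3405 CPM at E12.5, 3481 and 3526 CPM at E14.5, 3735 and 3656 CPM at E16.5, and 4075 and 4507 CPM in the P3 wells. Its step lay between E10.5 and E12.5, with a rise of 0.56 ± 0.08 on the log2 scale (edgeR adjusted p = 1e-06). The difference from E14.5 to E16.5, 0.23 with an edgeR adjusted p of 0.056, passed without E10.5 replicate 1 (0.21, edgeR adjusted p = 0.045) or replicate 2 (0.23, edgeR adjusted p = 0.02).

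Together the 8 genes took 1.00% of the UMIs of ventricular sums at E8.5, 0.793% and 0.943% (E10.5), 1.31% and 1.20% (E12.5), 1.59% and 1.61% (E14.5), 1.97% and 1.99% (E16.5), and 2.13% (P3). In atrial sums they took 0.862% (E8.5) and 1.98% (P3), with 1.66% and 1.63% (E16.5). The tags of the troponin I genes outnumbered those of the troponin T genes in ventricular sums up to E12.5, by ratios of 1.37 (E8.5), 1.55 and 1.37 (E10.5) and 1.30 and 1.22 (E12.5). They were near equal from E14.5 on, with ratios of 0.993 and 0.975 (E14.5), 1.10 and 1.08 (E16.5) and 0.936 (P3). These ratios compare 3′ tags between genes and not protein. Tnnt2 gave most troponin T tags and sets the gates, so the gates partly fix these totals and ratios, which were not tested.

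Fast skeletal troponin C, Tnnc2, was near 0 in both gates after E8.5 and was counted mostly outside them in the E10.5 embryo. In ventricular sums it was at 10.3 CPM at E8.5, 0 CPM (upper exact Poisson bound 5.79 CPM) and 1.52 CPM at E10.5 and at most 0.189 CPM later, from at most 14 UMIs a library. The E8.5 level rests on 14 UMIs in 8 of 65 barcodes. Whole libraries held 63 Tnnc2 UMIs (E8.5), 1108 and 1443 (E10.5), 7 and 6 (E12.5), then 4 to 7 in each heart library of E14.5 or E16.5, with 31 at P3.

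At E10.5, barcodes that were high in Tnnt2 but passed neither chamber gate held 49.2% and 29.5% of the Tnnc2 UMIs, and barcodes of the skeletal myogenic class, with Tnnt2 below the gate, held 28.2% and 36.2%. Ventricular-gated barcodes of E10.5 replicate 2 held 0.0693%. Of the 24 and 22 barcodes high in Tnnt2 outside both gates, 12 and 5 had UMIs of at least 2 of 6 myogenic factors or markers. In those, Tnnc2 was at 3730 and 4358 CPM, Tnnt1 at 1142 and 876 CPM, Tnnt3 at 303 and 404 CPM and Tnni2 at 121 and 247 CPM. They lacked Tnni3 and Nkx2-5, a cardiac transcription factor, with 0 UMIs of either in both libraries, and held 120 and 43 UMIs of Myog, a myogenic transcription factor. The other 12 and 17 barcodes carried Tnni3 at 654 and 617 CPM and 55 and 104 UMIs of Nkx2-5, with Tnnc2 at 358 and 173 CPM. They also held 1 and 11 UMIs of Myog, and whether the same barcodes carried Tnnc2 and Nkx2-5 is not given here. Tnni2 in them was at 124 and 56.1 CPM, so in replicate 1 it did not separate the groups.

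The myogenic barcodes high in Tnnt2 also carried the slow skeletal and cardiac subunits other than Tnni3. Cardiac Tnnt2 was at 2028 and 2056 CPM, Tnni1 at 2920 and 2539 CPM and Tnnc1 at 2444 and 2123 CPM, which for Tnnt2 is set by the gate. In the skeletal myogenic class with Tnnt2 below the gate, of 109 and 122 barcodes, Tnni1 was at 141 and 191 CPM, Tnnt1 at 107 and 119 CPM and Tnnc2 at 137 and 212 CPM. Tnni3 in that class was at 0.879 and 0.810 CPM. The classes were defined on the same cells by their markers, so these levels are a description and were not tested.

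**Figure D3:**
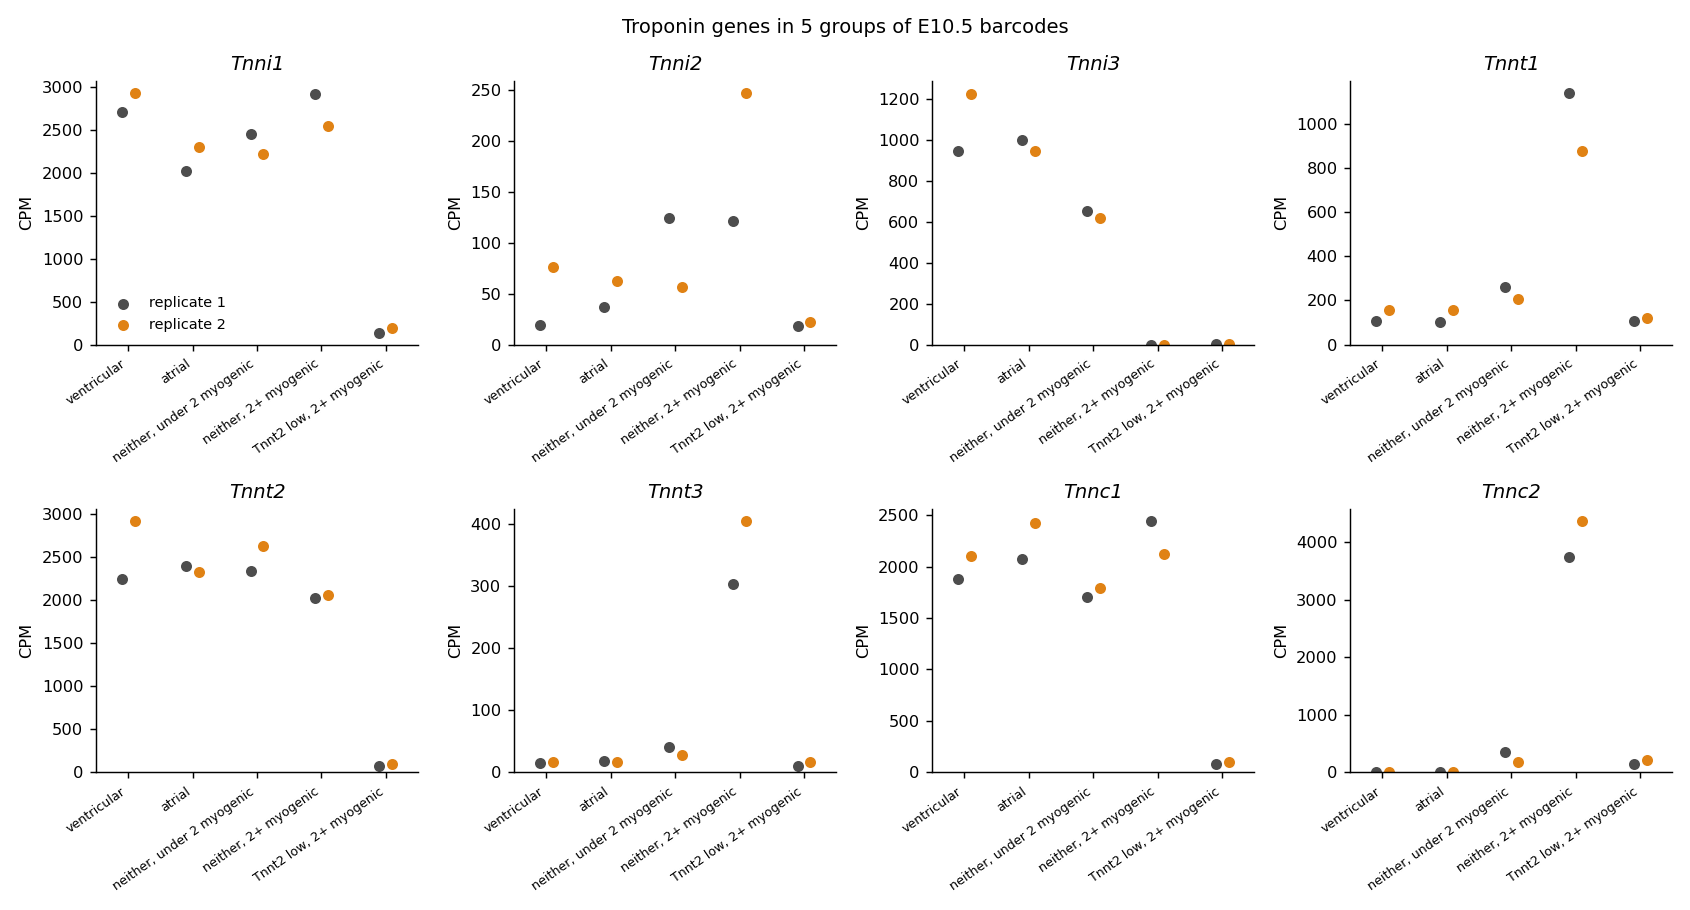
Levels of the troponin genes in CPM (vertical axes, linear and scaled for each gene) in 5 groups of E10.5 barcodes, with 1 point for each of the 2 libraries: the ventricular and atrial gates, barcodes high in Tnnt2 outside both gates with under 2 or with at least 2 myogenic genes, and myogenic barcodes low in Tnnt2. Tnnc2 is at 3730 and 4358 CPM in myogenic barcodes high in Tnnt2 and at 0 and 1.52 CPM in ventricular-gated ones, whereas Tnni3 has 0 UMIs in the former.

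The chambers were compared within each stage in 1 fit over the 16 sums from E10.5 to E16.5. Tnnt2 is left out here too, which leaves the same 6 members. At E10.5, 1 of the 6 passed, lower in atrial sums, where 0.655% of 11900 genes were called higher and 0.933% lower. At E12.5, 1 was higher and 2 were lower, beside 17.8% and 16.1% of all genes. At E14.5, 1 was higher and 3 were lower, beside 15.2% and 13.7%, and at E16.5, 2 were higher and 3 lower, beside 15.9% and 15.7%. The median log2 difference (atrial minus ventricular) of the 6 was −0.06, −0.11, −0.21 and −0.29 at the 4 stages, beside 0.00, 0.03, 0.01 and −0.01 over all genes.

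The largest turn was that of Tnnt1, which was lower in atrial than in ventricular sums at E12.5 and E14.5 and higher at E16.5. At E12.5 the atrial libraries, at 460 and 473 CPM, lay below the ventricular ones at 583 and 581 CPM, and at E16.5 they lay at 709 and 752 CPM against 124 and 126 CPM. The log2 difference was −0.08 ± 0.19 at E10.5 (edgeR adjusted p = 0.95), −0.46 ± 0.11 at E12.5 (edgeR adjusted p = 0.001), −0.97 ± 0.11 at E14.5 (edgeR adjusted p = 6.8e-09) and 2.43 ± 0.11 at E16.5 (5.39-fold, edgeR adjusted p = 1.6e-19). The change of the difference from E12.5 to E16.5 was 2.89 ± 0.16 (edgeR adjusted p = 2.4e-16), in a contrast that called 5.85% of genes higher and 5.28% lower. Removing barcodes with markers of another class ended the E12.5 call (−0.52, edgeR adjusted p = 0.6) and the E14.5 call (−0.81, edgeR adjusted p = 0.29), where it left 19 and 19 atrial barcodes at E12.5 and 59 and 45 at E14.5. The removal turns largely on a smooth muscle list that holds Acta2, which the gated barcodes themselves carried, at a median of 1331 CPM over ventricular sums. Without that list both calls were kept (−0.39 and −0.89, edgeR adjusted p = 0.003 and 2e-09). At P3, with no test, Tnnt1 was at 261 CPM in atrial and 58.7 CPM in ventricular sums.

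Slow skeletal Tnni1 was lower in atrial sums at all 4 tested stages. The log2 differences were −0.39 ± 0.10, −0.37 ± 0.10, −0.35 ± 0.10 and −0.67 ± 0.10 from E10.5 to E16.5 (edgeR adjusted p = 0.033, 0.0032, 0.0054 and 8.4e-07). At each of these stages both atrial libraries lay below both ventricular ones. The E10.5 call was lost without E10.5 replicate 2 (−0.40, edgeR adjusted p = 0.061), E14.5 replicate 1 (−0.39, edgeR adjusted p = 0.1) or E14.5 replicate 2 (−0.40, edgeR adjusted p = 0.098), and with DESeq2's size factors (−0.37, edgeR adjusted p = 0.05), the study's mitochondrial limits (−0.30, edgeR adjusted p = 0.18) or the narrower removal of mixed-marker barcodes (−0.34, edgeR adjusted p = 0.16). The E12.5 call was lost without E12.5 replicate 1 (−0.30, edgeR adjusted p = 0.095), and the E14.5 call without E14.5 replicate 1 (−0.34, edgeR adjusted p = 0.2) or replicate 2 (−0.38, edgeR adjusted p = 0.12) and without mixed-marker barcodes (−0.24, edgeR adjusted p = 0.21). The change of the difference from E12.5 to E16.5 was −0.30 ± 0.14 (edgeR adjusted p = 0.17) and passed with the library as a block (−0.30, edgeR adjusted p = 0.034). This change turned direction without mixed-marker barcodes.

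Cardiac Tnni3 differed less between chambers. The log2 differences were −0.16, 0.14 and 0.03 from E10.5 to E14.5, which did not pass (edgeR adjusted p = 0.69, 0.35 and 0.87), and −0.29 ± 0.11 at E16.5 (edgeR adjusted p = 0.04). That last call was lost without either library of E14.5 or E16.5 (−0.35 to −0.25, edgeR adjusted p from 0.075 to 0.33), by DESeq2 (−0.28, adjusted p = 0.052), with the study's mitochondrial limits (−0.31, edgeR adjusted p = 0.075) and without mixed-marker barcodes (−0.19, edgeR adjusted p = 0.25, or −0.27 and 0.056 where the smooth muscle list was not used). The higher Tnni3 share of atrial sums at E12.5 and E14.5 lay beside a lower Tnni1 level and, in CPM, a higher Tnni3 level. At E12.5 atrial Tnni3 was at 2358 and 2141 CPM against 1956 and 1744 CPM in ventricular sums. At E14.5 it was at 2334 and 2331 CPM against 2162 and 2188 CPM. The change of the Tnni3 difference from E12.5 to E16.5 was −0.42 ± 0.15 (edgeR adjusted p = 0.07), and passed with the library as a block (−0.43, edgeR adjusted p = 0.013). Without either E10.5 library it was −0.43 and −0.42, and without mixed-marker barcodes it turned direction.

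Tnnc1 differed by 0.17 ± 0.10 at E10.5 (edgeR adjusted p = 0.6), by 0.17 ± 0.10 at E12.5 (edgeR adjusted p = 0.19, and 0.046 with the library as a block) and by −0.06 at E14.5 (edgeR adjusted p = 0.71, whereas −0.31 without barcodes under 1% mitochondrial UMIs passed, edgeR adjusted p = 0.015). At E16.5 it was lower in atrial sums, by −0.30 ± 0.10 (edgeR adjusted p = 0.017), a call that was lost without E14.5 replicate 2 (−0.29, edgeR adjusted p = 0.058), E16.5 replicate 1 (−0.34, edgeR adjusted p = 0.12) or E16.5 replicate 2 (−0.29, edgeR adjusted p = 0.19), and without mixed-marker barcodes (−0.16, edgeR adjusted p = 0.37, or −0.27 and 0.054 where the smooth muscle list was not used). The difference changed by −0.47 ± 0.14 from E12.5 to E16.5 (edgeR adjusted p = 0.022). That call was lost without E12.5 replicate 2 (−0.40, edgeR adjusted p = 0.13) or without any 1 library of E14.5 or E16.5 (−0.48 to −0.42, edgeR adjusted p from 0.064 to 0.15), with no filter on low counts (−0.41, edgeR adjusted p = 0.073), and without mixed-marker barcodes, where the value turned to 0.17 (edgeR adjusted p = 0.68), or was −0.43 where the smooth muscle list was not used (edgeR adjusted p = 0.067).

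The fast skeletal isoforms differed between chambers in opposite directions at E14.5, Tnnt3 being higher and Tnni2 lower in atrial sums. With no test, both were higher in the atrial than in the ventricular sum at E8.5 (52.1 against 33.1 CPM for Tnni2 and 32.0 against 11 CPM for Tnnt3) and in both P3 wells. Tnnt3 was higher in atrial sums by 3.30 ± 0.19 at E12.5, 2.23 ± 0.33 at E14.5 and 1.98 ± 0.40 at E16.5 on the log2 scale (edgeR adjusted p = 1.8e-08, 0.00018 and 0.0019), where both atrial libraries stood above both ventricular ones. At E10.5 it differed by 0.10 ± 0.77 (edgeR adjusted p = 1). Without E16.5 replicate 1 the E16.5 difference was 1.65 and no longer passed (edgeR adjusted p = 0.14), and removing barcodes with markers of another class gave 1.55 at E12.5 (edgeR adjusted p = 0.25). Its change from E12.5 to E16.5, −1.33 ± 0.40 (edgeR adjusted p = 0.051), passed with the library as a block (−1.30, edgeR adjusted p = 0.0076). The change was −1.66 without E12.5 replicate 1, −1.32 without E14.5 replicate 1 and −1.27 without E14.5 replicate 2. It turned direction without mixed-marker barcodes.

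For Tnni2 at E14.5, the atrial libraries lay below the low-count barcodes and the ventricular libraries above them. The part of free RNA in the chamber difference was not tested. Tnni2 was lower in atrial sums at E14.5, by −1.38 ± 0.29 (edgeR adjusted p = 0.0061). That call was lost without E14.5 replicate 1 (−1.15, edgeR adjusted p = 0.22) or replicate 2 (−1.54, edgeR adjusted p = 0.059), and without mixed-marker barcodes (−0.63, edgeR adjusted p = 0.81). At E12.5 and E16.5 the log2 differences were −0.61 ± 0.21 and −1.19 ± 0.40 (edgeR adjusted p = 0.056 and 0.052), and both passed with the library as a block (−0.59 and −1.18, edgeR adjusted p = 0.0056 and 0.0092). They also passed without either E10.5 library (edgeR adjusted p = 0.0009 and 0.00094 at E12.5, 0.00068 and 0.00071 at E16.5), the first without E12.5 replicate 2 (−0.88, edgeR adjusted p = 0.041) and the second without either E12.5 library (−1.19, edgeR adjusted p = 0.035 each). At E10.5 the value of −0.03 ± 0.63 (edgeR adjusted p = 1) turned to 0.99 without E10.5 replicate 2 (edgeR adjusted p = 0.63).

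**Figure D4:**
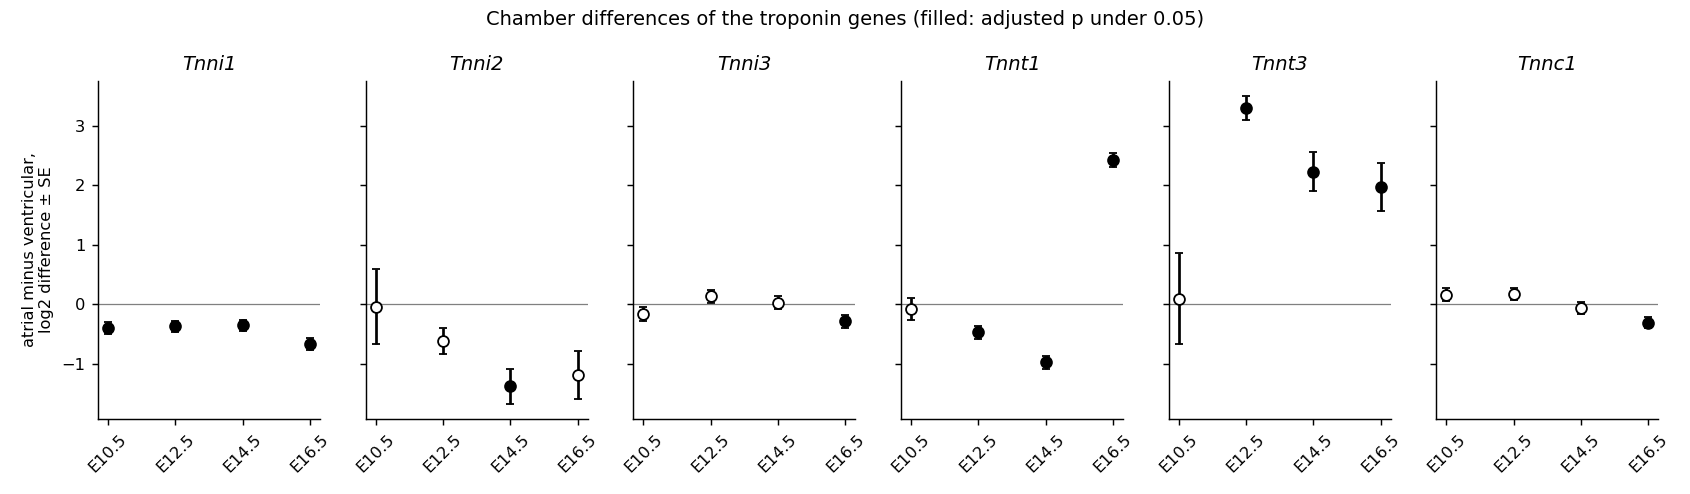
Log2 difference between atrial and ventricular sums (vertical axis, atrial minus ventricular) for 6 troponin genes at E10.5, E12.5, E14.5 and E16.5, with bars for the SE of the edgeR fit and filled points where the adjusted p was under 0.05. Tnnt1 goes from −0.97 at E14.5 to 2.43 at E16.5, and Tnnt3 is above 0 from E12.5 on.

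Within the ventricular gate, Tnnt1 was lower where Nppa was high at E12.5, E14.5 and E16.5. Nppa, the natriuretic peptide gene of the embryonic trabecular and atrial muscle, was used to split the barcodes at 1000 CPM or more and under 100 CPM. At E12.5 Tnnt1 was at 220 and 193 CPM in the Nppa-high barcodes (639 and 784) and at 737 and 714 CPM in the Nppa-low ones (993 and 1291). At E14.5 it was at 299 and 235 CPM (362 and 304 barcodes) against 1348 and 1400 CPM (2203 and 1839). At E16.5 the levels were 59.1 and 75.1 CPM against 136 and 140 CPM, so the fall from E14.5 was seen in both groups of barcodes. The direction was not the same at E8.5 (110 against 106 CPM in 21 and 32 barcodes) or in the P3 wells (61.2 and 89.4 CPM against 49.5 and 55.1 CPM).

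Tnni2 followed the same split at E12.5, with 38.2 and 22.5 CPM in Nppa-high and 129 and 103 CPM in Nppa-low ventricular barcodes. The abundant members differed far less. Tnni1 was at 3591 and 3165 CPM against 3776 and 3454 CPM, Tnni3 at 2051 and 1901 CPM against 1885 and 1674 CPM, and Tnnc1 at 2660 and 2322 CPM against 3048 and 2794 CPM. In the atrial gate the direction differed by stage. Tnnt1 was higher in Nppa-high barcodes at E12.5, at 561 and 546 CPM against 174 and 149 CPM, went both ways at E14.5, at 534 and 544 CPM against 572 and 477 CPM, and was lower in them at E16.5, at 366 and 485 CPM against 791 and 1276 CPM (41 and 46 barcodes). The 40 and 36 atrial barcodes of E16.5 between these Nppa levels, of 260 and 277, had Tnnt1 at 2016 and 1711 CPM and held 48.3% and 25.4% of the Tnnt1 UMIs. The atrial Tnnt1 level at E16.5 was thus uneven over barcodes, and in the Nppa-high majority it was 366 and 485 CPM beside 124 and 126 CPM in the ventricular sums. In that majority Tnnt1 was lower at E16.5 than in the Nppa-high barcodes of E14.5, at 534 and 544 CPM, so the rise of the atrial sums was not seen there. The splits use the cells' own counts and are descriptions with no test.

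**Figure D5:**
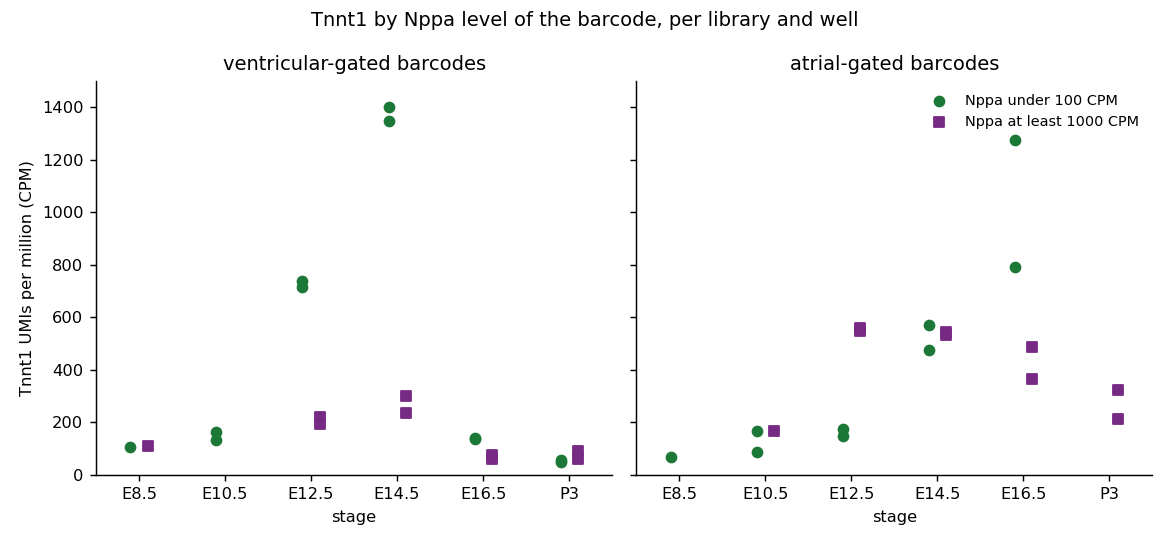
Tnnt1 level in CPM by stage in ventricular and atrial barcodes split by Nppa (1000 CPM or more, or under 100 CPM), with 1 point for each library or P3 well that had at least 10 such barcodes. Ventricular Nppa-low barcodes hold 737 and 714 CPM at E12.5 and 1348 and 1400 CPM at E14.5, above the Nppa-high ones at both stages.

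Low-count barcodes and mitochondrial content were measured beside these levels. Barcodes with 100 UMIs or fewer, taken as a measure of free RNA, carried Tnnt1 at 5.30 and 10.2 CPM at E10.5. They carried it at 437 and 453 CPM at E12.5, 837 and 628 CPM at E14.5, and 147 and 184 CPM at E16.5. The E16.5 ventricular level of Tnnt1, 124 and 126 CPM, lay below that of the low-count barcodes. So did the atrial level at E14.5, 642 and 571 CPM, and the atrial level at E12.5, 460 and 473 CPM, was close to theirs. The part of free RNA in these levels was not tested. The same barcodes carried Tnni3 at 1600 and 1426 CPM at E12.5, 1741 and 1857 CPM at E14.5 and 3105 and 3263 CPM at E16.5. Their Tnni2 levels are given above with atrial Tnni2, and their Tnnt3 levels with ventricular Tnnt3. Ventricular-gated barcodes with under 1% mitochondrial UMIs, 803 of 2286 in E12.5 replicate 1 with a median of 5355 UMIs, had Tnni1 at 4597 CPM against 3581 CPM in the rest, and those of replicate 2 had it at 4165 CPM against 3221 CPM. Such barcodes made up 35.1% and 34.0% of the ventricular gate at E12.5, 15.8% and 14.02% (E14.5), 7.23% and 5.25% (E16.5) and 0.487% (P3), and of the atrial gate 17.9% and 23.1%, 30.4% and 33.9%, 21.2% and 16.2%, and 0.13%. Their proportion thus moved with stage and chamber, while the median mitochondrial percentage of ventricular barcodes went from 5.10% and 5.43% at E12.5 to 23.1% at P3. In atrial barcodes of E14.5 replicate 1 the gap was wider, with Tnni3 at 3777 CPM against 2043 CPM in the rest and Tnnt2 at 8285 CPM against 4018 CPM. The part of this in the stage and chamber differences was not tested beyond the fits without such barcodes. Ventricular Tnnt1 at E12.5 went both ways, at 564 CPM against 586 CPM in replicate 1 and 688 CPM against 566 CPM in replicate 2.

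Other genes of the thin filament, a list of 14 that were all tested, moved both ways. In ventricular sums 5 rose and 4 fell from E10.5 to E12.5, beside 8.44% and 5.47% of all genes. Then 3 rose and 4 fell up to E14.5, beside 19.4% and 17.0%, and 6 rose and 4 fell up to E16.5, beside 19.3% and 20.4%. The counts from E12.5 to E14.5 are thus near the share over all genes. The medians of the list were −0.01, −0.08 and 0.21 on the log2 scale. Tpm4 and Tpm3, a low-molecular-weight and a slow muscle tropomyosin gene, fell in each interval, Tpm4 by 0.94, 0.67 and 0.85. Tnni3k, a kinase that binds cardiac troponin I, rose by 2.40, 0.26 and 0.61, and Lmod2, an actin filament nucleator, by 0.97 in the first interval. Acta1, skeletal α-actin, fell by 1.34 ± 0.31 from E14.5 to E16.5, while Neb, nebulin, rose by 1.39 ± 0.21.

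In atrial sums 4 of the 14 rose and 4 fell from E10.5 to E12.5 (10.51% and 10.47% of all genes), 2 passed from E12.5 to E14.5, both lower (3.10%), and 4 rose and 3 fell from E14.5 to E16.5 (7.79% and 4.16%). Acta2, smooth muscle α-actin of the early heart, fell by 1.26, 0.45 and 1.37 on the log2 scale, and Neb rose by 1.93 ± 0.49 in the last interval. Between chambers none of the 14 passed at E10.5 by edgeR, where 3 had an unadjusted p under 0.05, and none by DESeq2. At E12.5, E14.5 and E16.5, 1, 3 and 3 were higher and 4, 5 and 5 lower in atrial sums, where 17.8%, 15.2% and 15.9% of all genes were higher and 16.1%, 13.7% and 15.7% lower. Tpm2, β-tropomyosin, was higher by 0.85 ± 0.09, 1.36 ± 0.09 and 1.41 ± 0.09, and Lmod3, another leiomodin, was lower (−1.07 ± 0.13, −1.54 ± 0.15 and −1.48 ± 0.13), its atrial means being 23.7, 22.5 and 31.2 CPM against 45.1, 63.0 and 79.8 CPM. The difference changed from E12.5 to E16.5 for 3 of the 14, beside 5.85% of all genes upward and 5.28% downward, upward for Tpm3 (0.69) and Tpm2 (0.56) and downward for Acta2 (−1.80).

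Over the 20 sums of both chambers and all 10 matrices, the genes whose log2(CPM + 1) followed Tnni3 most closely among 6998 genes included Tob2 (Pearson r = 0.973), Trdn (0.968), Coro6 (0.962) and Myzap (0.961). Trdn encodes triadin, a protein of the sarcoplasmic reticulum. For Tnni1 they were Ppif (0.863), Nrp1 (0.800), Cox6a1 (0.799), Mrrf (0.798) and Mrap (0.791), so its course had no match as close as that of Tnni3. The points share libraries and stages, so these values describe likeness over stages.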

How the data were processed

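The authors deposited 10x Genomics matrices of UMI counts (3′ tags) per gene and barcode, aligned to mm10. The submitters' notes name Cell Ranger 2.1.1 and Seurat 3.1.1, and the matrix headers were written by Cell Ranger 3.1.0 and 3.0.0. The labels give trypsin digestion and v2 chemistry, whereas the study's methods give collagenase II and v3. The file of the other E8.5 library was not analysed here. E16.5 replicate 1 is 1 matrix from 2 sample records, and the P3 wells were told apart by barcode suffix.

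Barcodes with at least 2000 UMIs were gated, counts were summed per library and chamber where at least 10 barcodes were present, and CPM was computed on all UMIs of the sum and not divided by gene length. Sums of E10.5 to E16.5 were tested with edgeR 4.0.16 (R 4.3.3; TMM, filterByExpr, robust glmQLFit and glmQLFTest), in separate ventricular, atrial and joint fits, with Benjamini-Hochberg adjustment over all genes and a threshold of 0.05. The log2 fold changes carry the TMM scaling and the CPM do not, so the size or even the direction can differ between them. For atrial Tnni1, mean CPM was 3265 at E14.5 and 3047 at E16.5, whereas the log2 fold change was 0.056. E8.5 and P3 entered no test and have exact Poisson or binomial intervals, which cover counting error only. Mitochondrial UMIs count in CPM, so the higher mitochondrial content of P3 lowers the CPM of its other genes against earlier stages. The study's mitochondrial limit of 20% would keep 1553 of 5960 ventricular barcodes at P3. The paper reports significant batch differences at P3 alone. The labels call libraries of a stage biological replicates without naming animals, so p-values measure the spread between samples, which may be partly technical. Each fit estimates the spread over all of its stages together. A p-value for later stages therefore also carries the spread of the E10.5 sums, which hold few barcodes. The test scripts were also run on simulated data with known changes. DESeq2 1.42.0, Python 3.11.15, numpy 2.4.6, pandas 2.3.3, scipy 1.17.1 and matplotlib 3.10.9 were also used.

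The 8 genes and the gates were given, and the members and lists were chosen with earlier results of these data known. Of the 8, Tnnt2 is given with no test because it sets the gates, and Tnnc2 had too few counts to test. Of 14 thin filament genes, counts and the 3 called genes with the largest change in each direction could be named, and for likeness the 5 genes with the highest Pearson correlation among those with a mean of at least 10 CPM, of which 1 is not reported here. Other barcodes took a class where they had UMIs of 3 markers of it (2 for skeletal myogenic, or 10% globin UMIs for erythroid) and of no other. Doublets were kept and no caller was run. Alternatives covered DESeq2, its size factors in edgeR, no low-count filter, 5000 UMIs, mitochondrial limits, an Actc1 gate, removal of mixed-marker barcodes, a replicate block and each library left out. Removal of mixed-marker barcodes without the smooth muscle list, and sums without mitochondrial genes, were added after seeing the data.

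Chambers of a library pair by construction, and the correlation of their deviations from the group means was −0.04 at E10.5, 0.16 at E12.5, 0.02 at E14.5 and 0.07 at E16.5. The library as a block was the alternative for chamber comparisons.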

Additional observations from a re-analysis of the deposited data

Results flagged for a closer look

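The atrial minus ventricular log2 difference of Tnnt1 changed by 2.89 ± 0.16 from E12.5 to E16.5 by the test of the difference itself (edgeR adjusted p = 2.4e-16), and this change was 2.80 to 3.00 in every alternative run. The same test gave −0.47 ± 0.14 for Tnnc1 (edgeR adjusted p = 0.022), a call that was lost in 7 alternatives and turned direction in 1 other.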

How the results depend on the processing

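For the members, with Tnnt2 counted although it sets the gates, there were 77 comparisons, of which 45 passed, with 1440 values under alternatives. Of the values for comparisons that passed, 761 kept direction and call, 79 kept the direction and lost the call and 2 turned, and of those for comparisons that did not pass, 493 stayed, 76 came to pass and 29 turned. For Tnnt1, the rises to E12.5 in both chambers, the ventricular rise to E14.5 and fall to E16.5, and the atrial excess at E16.5 kept direction and call under each alternative.

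The number of genes called in the ventricular intervals was 1956, 5114 and 5593, with 1246 to 2029, 3150 to 5630 and 3686 to 6255 when 1 library was left out. In the atrial intervals it was 2376, 782 and 1353, with 1336 to 2498, 255 to 924 and 689 to 1563. Between chambers it was 189, 4030, 3435 and 3751, with 165 to 184, 2515 to 4426, 1479 to 3781 and 2186 to 4100, and 1324 for the change from E12.5 to E16.5, with 652 to 1607. DESeq2 called 250 and 609 genes in the later atrial intervals. The study's mitochondrial limits gave 106 between chambers at E10.5, and the Actc1 gate gave 329 there and 3681 for ventricular E10.5 to E12.5. Without mixed-marker barcodes the counts were 3027 and 3707 in the later ventricular intervals, 25 and 133 in the later atrial ones, 995, 911 and 2003 between chambers from E12.5, and 534 for the change. That removal left 1 to 4 barcodes of a chamber in the E10.5 libraries, which gave no value, and 223 of 2286 ventricular barcodes in E12.5 replicate 1. Those 223 held 8498 of 254177 UMIs of Tnni1 and Tnni3. In E14.5 replicate 1, 783 of 3057 ventricular barcodes were left, with 45083 of 308245 such UMIs. The barcodes left thus held fewer UMIs of the pair each, more so at E12.5, and the part of this was not tested.

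Direction turned as follows, and apart from the fewer samples or barcodes that an alternative uses the cause was not tested. With no filter Tnni3 between chambers at E14.5 was −0.030, with DESeq2 Tnni2 at E10.5 was 0.044, and with a block 0.12. With the mitochondrial limits atrial Tnni1 from E14.5 to E16.5 was −0.068, and Tnni3 and Tnnt3 between chambers at E10.5 were 0.0047 and −0.39. Without barcodes under 1% mitochondrial UMIs, atrial Tnni1, Tnni3 and Tnnc1 from E12.5 to E14.5 were −0.060, −0.14 and −0.12, Tnni2 between chambers at E10.5 was 0.086, and Tnni3 at E14.5 −0.25. With the Actc1 gate Tnni2 and Tnnt1 between chambers at E10.5 were 0.16 and 0.23. Without mixed-marker barcodes ventricular Tnni1, Tnni3, Tnnt2 and Tnnc1 from E12.5 to E14.5 were −0.25, −0.19, −0.12 and −0.16, the first of which passed (edgeR adjusted p = 0.011). Between chambers Tnni3 and Tnnc1 at E12.5 were then −0.30 and −0.33, Tnnc1 at E14.5 was 0.055, and the changes of Tnni1, Tnni3, Tnnt2, Tnnt3 and Tnnc1 from E12.5 to E16.5 were 0.19, 0.11, 0.54, 0.26 and 0.17. With 1 library left out, atrial Tnni2 from E10.5 to E12.5 was −0.13 to 0.62, the lowest without E10.5 replicate 1, and atrial Tnni3 from E12.5 to E14.5 was −0.0036 without E12.5 replicate 2. Between chambers at E10.5, Tnnt3 was then −0.067 (without E10.5 replicate 1) to 0.21, Tnni2 −0.34 to 0.99, Tnni3 −0.45 to 0.11 and Tnnt2 −0.40 to 0.11, the last 3 highest without E10.5 replicate 2.

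Between stages the replicate numbers are only names, with correlations of same-numbered deviations from −0.02 to 0.09. The replicate block made ventricular Tnnc1 from E12.5 to E14.5 (0.29, edgeR adjusted p = 0.039) and atrial Tnnt3 from E10.5 to E12.5 (1.74, edgeR adjusted p = 0.0046) pass. The Tnni3 share moved by −2.84 to 2.47 percentage points, except where it was averaged over thinned cells, with a largest shift of −10.0 points in the E8.5 atrial sum. Tnnc2 had too few counts to be tested, and the E10.5 sums rest on 39 to 56 barcodes.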
